A study of Mus musculus with 15 samples.

Results

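Ba/F3-beta cells that had received a control siRNA and then IL-3 for 2 h were compared with cells that had received the same control siRNA and no IL-3. The 6 arrays of this comparison, of 15 in the series, were taken by their titles, 1 array per side on each of 3 Affymetrix mouse designs, U74A, U74B and U74C. Both sides carried the scramble I siRNA, which has no intended target, and were of the same cell line, so that IL-3 was the labelled difference. The series also holds control siRNA cells after 30 min of IL-3 and cells with siRNAs against Stat5a and Stat5b, and was built to find IL-3-induced genes that depend on these factors. Each side had a single array per design, so no difference given here has a replicate check and no p-value was computed.

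Interleukin-3 binds a receptor of an alpha chain and a shared beta chain, and the kinase JAK2 bound to that receptor phosphorylates the transcription factors STAT5A and STAT5B. The same receptor feeds the RAS-MAPK cascade, which turns on early response genes, and PI3K-AKT, which holds FOXO transcription factors out of the nucleus. Ba/F3 cells, a mouse blood cell line usually described as pro-B, need IL-3 to survive and divide.

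The values are signals, the linear brightness of a probe set after the authors' MAS5 processing. A floor of 119.869 was set where as many probe sets reached it as passed the authors' own filters, 14553, and a probe set was kept as measured where the brighter of its 2 arrays got there. Dimmer signals were set to the floor before a ratio was taken, so a fold change that uses one is given as "at least". Each array had been scaled to a common trimmed mean, which removes any change in total RNA per cell, and in this bulk RNA fewer cells with a transcript cannot be told apart from less transcript per cell. The 2 arrays of a design correlated at 0.970 on U74A, 0.940 on U74B and 0.958 on U74C (log2 signal, over probe sets). The ratio of 3′ to 5′ control signals was at most 1.19 for actin, at most 0.838 for Gapdh and 3.28 to 4.48 for Tfrc over the 6 arrays. Of the markers fixed for the pro-B and B lineage, 3 of 19 reached the floor (Cd79b, Lef1 and Ptprc), while Cd79a, Igll1, Vpreb1, Ebf1, Pax5, Rag1 and Il7r stayed under it on both sides. Erythroid and megakaryocyte markers reached it in 7 of 11 cases, myeloid and mast markers in 2 of 19 and T and NK markers in 0 of 10. Fibroblast and epithelial markers reached it in 3 of 10 (Cdh1, Col1a2 and Epcam), so reaching the floor is a weak sign of lineage here.

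IL-3 for 2 h raised more genes by 2-fold than it lowered. Of 8294 measured genes, 203 (2.45%) were higher by 2-fold or more and 135 (1.63%) lower, with 21 and 8 of them past 4-fold. The median log2 ratio of all genes was -0.03, and 46.2% lay above 0. At 1.5-fold the directions were about even, with 657 genes (7.92%) higher and 688 (8.3%) lower. After 30 min of IL-3, read against the same unstimulated arrays, 58 of 8154 genes (0.711%) were higher by 2-fold and 28 (0.343%) lower. The measured genes were chosen anew for that comparison, so the sets at 30 min and 2 h differ. By probe set, 338 of 13596 (2.49%) were higher and 278 (2.04%) lower at 2 h. The design text gives 553 stimulated genes at that time, under filters that could not be rebuilt here, and 614 probe sets were higher when signals under the floor were used as deposited.

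**Figure D1:**
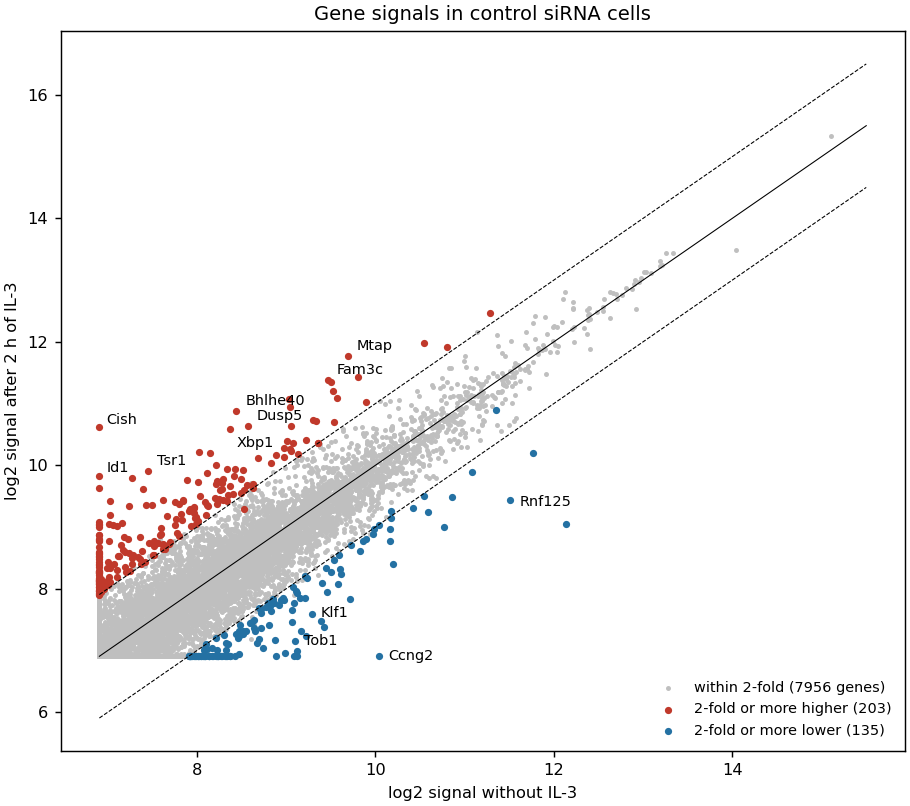
Signal of each measured gene without IL-3 (horizontal axis) and after 2 h of IL-3 (vertical axis), both log2, with signals under the floor raised to it. Each point is a gene, the solid line marks equality and the dashed lines 2-fold. The 203 genes called higher are red and the 135 called lower are blue. Plotted signals are medians over a gene's probe sets while calls use the median ratio, so a few coloured points lie inside the lines.

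Cish encodes a SOCS family protein that binds the activated receptor and restrains STAT5. Its signal was 108 without IL-3, 1097 at 30 min and 1565 at 2 h, at least 13.1-fold above the unstimulated array. The start of the gene is shown because STAT5 pairs bind the palindrome TTCNNNGAA, which occurs 2 times directly after the annotated start (positions 1 and 12, the first base of the gene being 1; capitals). The stretch lies on the plus strand at chr9:107296599-107296688 of GRCm38.p6 and comes from RefSeq.

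Cish: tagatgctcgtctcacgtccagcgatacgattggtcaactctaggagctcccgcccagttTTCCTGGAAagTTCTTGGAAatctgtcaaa

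Among 11 measured genes of the STAT5 target list with a window from 250 bases before to 50 bases after the start, 1 held TTCNNNGAA, 9.09%, against 9.55% of all 27025 genes with a window. The window was first limited to the bases before the start and then widened after the Cish sequence had been seen; over the bases before the start the counts were 0 of 11 and 8.13%. The palindrome reads the same on both strands, and a match is a run of letters, not a binding site.

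Of the 14 measured genes on the list of STAT5 targets known in blood cells 9 were higher by 2-fold and 0 lower, against 2.45% and 1.63% of all genes, and its median log2 ratio was 1.32. In 7 of the 14 a signal under the floor entered the ratio, and of 8 whose arrays both reached the floor 3 were higher by 2-fold (2.25% of all genes so restricted were higher and 1.58% lower). Id1, a dominant negative partner of bHLH transcription factors, went from 49.98 to 368 at 30 min and 911 at 2 h, at least 7.6-fold. Bcl2l1, which encodes the survival protein BCL-XL, was 98.004 without IL-3, 130 at 30 min and 512 at 2 h, at least 4.27-fold, so most of its increase lay after 30 min. Dusp5, a nuclear phosphatase of ERK, had 380, 2378 and 1593 in the same order, 4.19-fold at 2 h.

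Other members of that list are named after their values were seen. Pim2, a survival kinase, went from 81.6 to 411, at least 3.43-fold. The related Pim1 was read by a pair of probe sets, 573 to 1047 on one and 51.3 to 334 on the other, so its size depends on the probe set. Socs1, a feedback inhibitor of JAK kinases, peaked early, with 35.1 without IL-3, 277 at 30 min and 128 at 2 h. Socs2 (0.43) and Mcl1 (0.61) stayed under 2-fold on the log2 scale, and Bcl2 (-0.05) and Ccnd3 (-0.11) were close to 0.

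With Stat5 siRNA and 2 h of IL-3, 6 of 15 measured genes of the list were 2-fold higher than the same unstimulated control arrays. The median was 0.73. Measured genes were chosen anew for that comparison, and its share of all genes past 2-fold was not computed. The count thus cannot be weighed against a share, nor set directly beside that of the control cells. Cish had a signal of 646 with Stat5 siRNA, Bcl2l1 372 and Id1 713. The series holds no unstimulated Stat5 siRNA cells, so no change with IL-3 within Stat5 siRNA cells can be given. The count and median share their unstimulated arrays with the control comparison.

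Many genes that damp MAPK signalling were higher as well. Of 18 measured members of the feedback list 8 were higher by 2-fold and 0 lower, against 2.45% and 1.63% of all genes. The median log2 ratio was 0.78, and in 11 of the 18 a signal under the floor entered the ratio. Of 10 whose arrays both reached the floor 5 were higher by 2-fold, against 2.25% of all genes so restricted. Phlda1, a cytoplasmic regulator induced by growth factors, had 43.0 without IL-3, 840 at 30 min and 792 at 2 h, at least 6.61-fold. Dusp4, an ERK phosphatase of the nucleus, had 112, 454 and 528, at least 4.41-fold. Dusp6, the cytoplasmic ERK phosphatase, was read on both U74A (18.2, 146 and 480) and U74B (62.3, 157 and 397) and was at least 4-fold and at least 3.31-fold higher at 2 h. Its signals at 30 min were well under those at 2 h, whereas Dusp5 was brighter at 30 min than at 2 h. Spred1, an inhibitor of RAS activation that was named after its values were seen, was read by 4 measured U74B probe sets. Their signals without IL-3 and at 2 h were 219 and 834, 409 and 1606, 404 and 844, and, on the dimmest, 43.1 and 131, of which only the last was within 2-fold once the floor was set (at least 1.10-fold). At 30 min the first of these had 207.

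Fewer immediate early genes were past 2-fold at 2 h than at 30 min. At 2 h the list had 10 of 27 genes higher and 1 lower, against 2.45% and 1.63% of all genes, with a median log2 ratio of 0.55. At 30 min 16 of 31 were higher and 0 lower, against 0.711% and 0.343% of all genes, with a median of 1.19. Genes were kept as measured separately for each time, so the sets differ, and a gene bright only at 30 min enters only the second. In 10 of the 27 a signal under the floor entered the ratio. Of 18 whose arrays both reached the floor 6 were higher and 1 lower at 2 h. Of all genes so restricted 2.25% were higher and 1.58% lower. Dusp1, a phosphatase of MAP kinases, had 149 without IL-3, 1824 at 30 min and 448 at 2 h, and Myc, a driver of growth and ribosome production, had 39.4, 527 and 339. Fosl2, an AP-1 subunit, was read by a pair of U74B probe sets, with 417, 1708 and 933 on the brighter probe set. Srf, the factor that serves many early gene promoters, had 128, 469 and 479 on one U74B probe set and 259, 367 and 537 on another, so its level at 2 h against 30 min depends on the probe set.

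Named after their values were seen, Egr2 went from 26.0 to 2238 at 30 min and 309 at 2 h, Ier2 from 313 to 3487 and 874, and Csrnp1 from 164 to 2095 and 357. All were still above the unstimulated array, by at least 2.58-fold, 2.79-fold and 2.17-fold. Btg2, an antiproliferative gene also named after its values were seen, had 401, 1188 and 316. It was thus below its unstimulated signal at 2 h. Klf6 was the list's lower gene, with 512 and 592 on its probe sets without IL-3 and 255 and 245 at 2 h (2.21-fold).

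**Figure D2:**
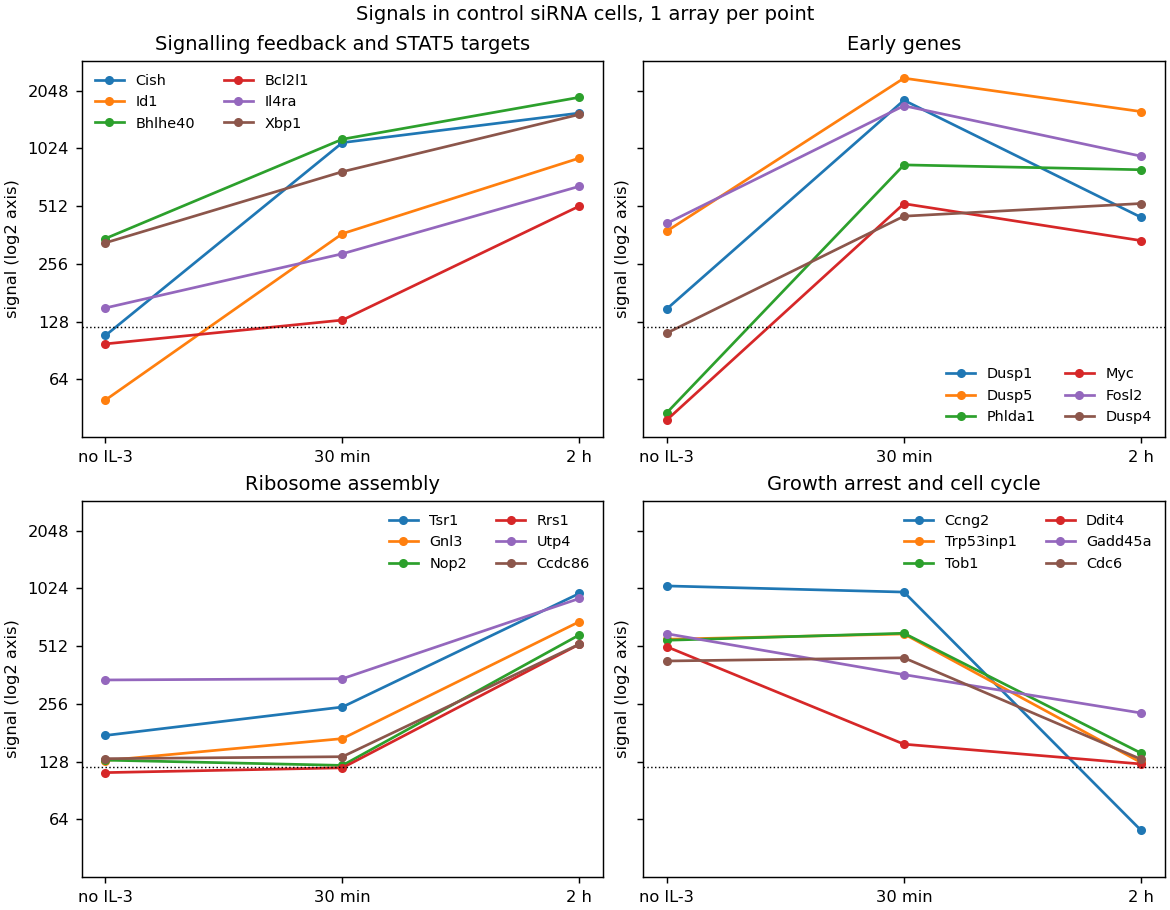
Signals of 24 genes in control siRNA cells without IL-3, after 30 min and after 2 h (log2 axis, 1 array per point, signals as deposited; dotted line, the floor). The early genes peak at 30 min or stay level to 2 h, the ribosome assembly genes are near their starting level at 30 min and high at 2 h, and Ccng2, Trp53inp1, Tob1 and Cdc6 fall between 30 min and 2 h.

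Further regulators rose. Bhlhe40, a bHLH repressor, had 347, 1143 and 1890 (5.44-fold at 2 h). Xbp1, a transcription factor of the unfolded protein response, had 330, 774 and 1539 (4.67-fold), the 1 gene past 2-fold among the 33 measured of its list; Hspa5, an ER chaperone, was at 0.64 (log2). Ikzf4, an Ikaros family factor read only on U74C, had 168, 487 and 781. Il4ra, the alpha chain of the IL-4 receptor, had 151, 289 and 649 (4.3-fold), and Tnfrsf13b, the receptor TACI, had 954, 1345 and 2090 (2.19-fold). Id2 was at 297 without IL-3, 347 at 30 min and 825 at 2 h.

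The receptor chain genes themselves moved little. Of 29 measured genes of the receptor, JAK and STAT list 1 was higher and 1 lower, against 2.45% and 1.63% of all genes. Csf2rb, the shared beta chain, was at 0.24 (log2), Il3ra at 0.14 and Jak2 at -0.03, all named after their values were seen. Stat5b fell to 33.0% of its unstimulated signal on a single U74B probe set, which had 536 without IL-3, 499 at 30 min and 177 at 2 h. Its U74A probe set was under the floor on both arrays (60.9 and 47.7). The Stat5b call was lost with the floor halved and with no filter on low values. Stat5a, named after its values were seen and read by a pair of probe sets that can cross-hybridise, kept 87.4% and 80.7%. Sh2b3, the adaptor LNK that restrains JAK2, was the higher gene, with 494 and 1212 on U74B and 113 and 196 on U74A. Its median of both lay at the threshold, and the call was lost with the floor halved, with median scaling and with no filter on low values.

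Genes that assemble ribosomes were higher at 2 h and not yet at 30 min. Of 52 measured genes of large subunit assembly 17 were higher by 2-fold and 0 lower, against 2.45% and 1.63% of all genes. Their median log2 ratio was 0.66, and 47 lay above 0 (90.4%, against 46.2% of all genes). Of 51 of small subunit assembly 10 were higher and 0 lower, with a median of 0.44, and 46 lay above 0. At 30 min 0 of 44 and 0 of 46 were higher by 2-fold, over the smaller sets of genes measured in that comparison. Of all genes 0.711% were higher then, so counts of 0 are near that share, and the medians were 0.06 and 0.01. Counted only where both arrays reached the floor, 13 of 43 and 8 of 45 were higher at 2 h. The share of all genes so restricted was 2.25%.

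Among the small subunit genes, Tsr1, a GTPase-like factor of late maturation, had 175 without IL-3, 247 at 30 min and 965 at 2 h (5.5-fold). Utp4, a component of the early processome, had 341, 347 and 908 (2.66-fold). Wdr43, also a processome protein, had 155 and 517, and 94.4 and 525, on its U74A probe sets, while its U74C probe set went from 138 to 125. Bysl, needed for 40S maturation, went from 86.9 to 314, at least 2.62-fold. Among the large subunit genes, Gnl3, the GTPase nucleostemin, had 130, 169 and 687 (5.29-fold). Nop2, a methyltransferase of 28S ribosomal RNA, had 130, 122 and 587 (4.5-fold), and Rrs1, which brings 5S ribosomal RNA into the particle, had 112, 119 and 524 (at least 4.37-fold). Ccdc86 had 133, 136 and 525 (3.95-fold).

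Several were read by more than 1 probe set that agreed. Nifk had 70.5 and 289 on U74A and 220 and 629 on U74B, Ddx18 had 138 and 336 and also 228 and 490 on U74A, and Wdr75 had 194 and 444 and also 184 and 406 on U74B. Nop16 (2.58-fold), Brix1 (2.72-fold on one probe set and at least 2.03-fold on another) and Nolc1, a nucleolar chaperone (2.64-fold), likewise rose on every measured probe set. Fbl, the methyltransferase of box C/D particles, had 1136 and 1080, and Npm1, nucleophosmin, 4700 and 4707, while the box C/D proteins Nop56 (538 and 1319) and Nop58 (250 and 632) rose. These 4 genes are named after their values were seen.

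The E-box CACGTG, which MYC and related bHLH factors bind, was searched in the same promoter windows. The stretches below are those of the named ribosome assembly genes whose windows hold it, with the E-box in capitals, from RefSeq on GRCm38.p6. Tsr1 lies at chr11:74898044-74898109, Wdr43 at chr17:71616172-71616244, Utp4 at chr8:106893595-106893669 and Nop2 at chr6:125131763-125131888, all on the plus strand, and Ccdc86 at chr19:10949237-10949303 on the minus strand. Counted from the first base of the gene as 1, the E-box begins at 25, 18, 16, -60 and 24.

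Tsr1: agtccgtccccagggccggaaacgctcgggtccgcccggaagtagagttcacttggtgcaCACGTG
Wdr43: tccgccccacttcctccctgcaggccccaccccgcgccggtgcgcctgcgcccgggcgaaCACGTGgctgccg
Utp4: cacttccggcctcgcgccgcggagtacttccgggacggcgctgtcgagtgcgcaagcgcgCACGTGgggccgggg
Nop2: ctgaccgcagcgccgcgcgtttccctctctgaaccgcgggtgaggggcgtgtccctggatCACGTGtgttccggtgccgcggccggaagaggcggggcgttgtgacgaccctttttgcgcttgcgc
Ccdc86: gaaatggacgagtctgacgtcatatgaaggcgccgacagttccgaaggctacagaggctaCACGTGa

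The E-box reads the same on both strands. It was in 11 of 43 windows of small subunit genes (25.6%) and 9 of 45 of large subunit genes (20%). Over all measured genes with a window the share was 11.8%, over genes higher by 2-fold 19.2% (32 of 167) and over genes lower by 2-fold 13.6% (15 of 110). Lists with 0 genes higher by 2-fold had similar shares. Among them were autophagy and lysosome genes (10 of 40, 25%), G1 cyclins and their partners (5 of 20, 25%) and tRNA modification (6 of 25, 24%, with a median log2 ratio of 0.24). The list of snoRNP proteins and nucleolar chaperones had 0 of 11. Shares are descriptions, and a match does not show that a factor binds.

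Around the ribosome the picture was mixed, set against 2.45% of all genes higher by 2-fold and 1.63% lower. RNA polymerase I and its factors had 2 of 16 genes higher (Taf1c, 123 and 277, and Taf1d) with a median of 0.32. RNA polymerase III had 1 of 17, Polr3e, a subunit of the enzyme that makes transfer RNA, with 521 and 1092 on its brightest probe set. The tRNA modification list had 0 of 30 past 2-fold with a median of 0.24, led by Trnt1 (0.96), which adds the CCA end. Aminoacyl-tRNA synthetases had 2 of 33 higher, Tars (197 and 424) and the associated Eef1e1 (736 and 2368). Of 40 initiation and elongation factors 3 were higher, Eif1a (226 and 830, and 168 and 560, on U74A), Eef1e1 and Eif2b3 (230 and 688). Cytosolic ribosomal proteins, which the assembled particle is made of, had a median of 0.04 over 28 genes; the 1 higher gene, Rps13, was read only on U74C (130 and 531). Splicing factors (0 of 57 past 2-fold), nuclear transport (0 of 50) and cytosolic chaperones (0 of 33) stayed within 2-fold, with medians of -0.05, 0.12 and 0.14.

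**Figure D3:**
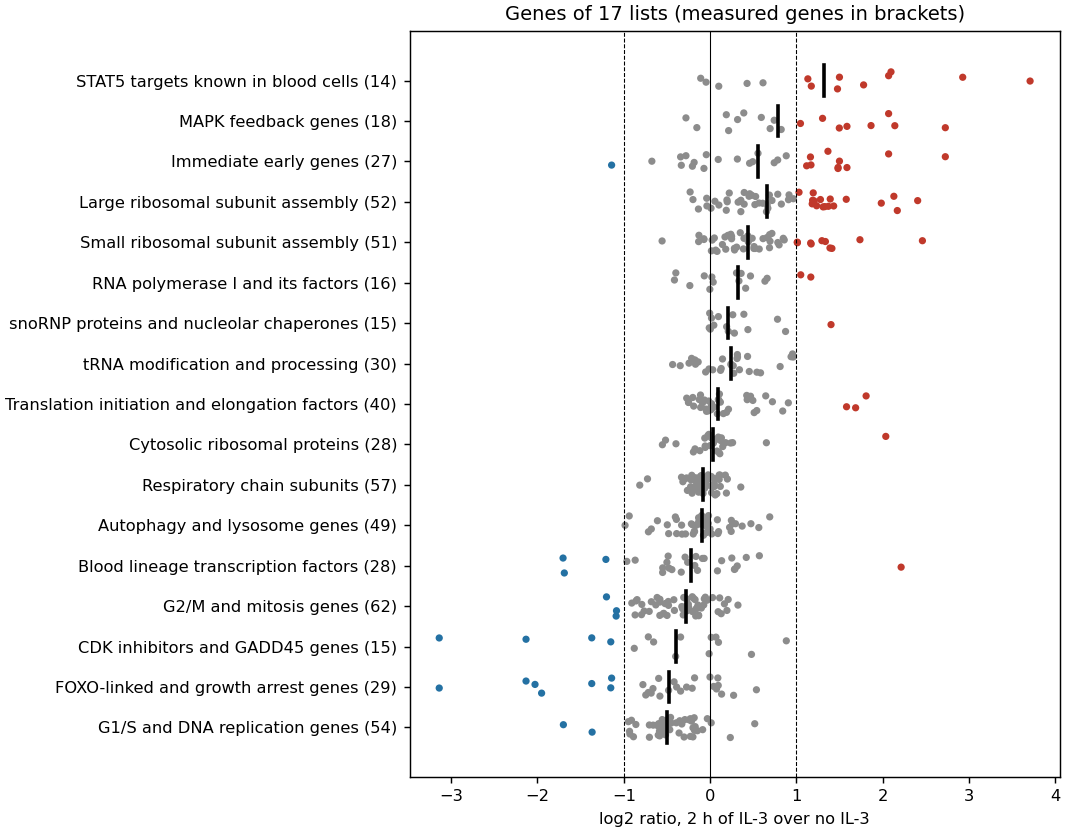
Log2 ratio, 2 h of IL-3 over no IL-3, of each measured gene of 17 lists (number measured in brackets). Points past 2-fold are red (higher) or blue (lower), the dashed lines mark 2-fold and the black bar is the list median. STAT5 targets, MAPK feedback and ribosome assembly lie to the right of 0, and growth arrest and DNA replication genes to the left.

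Changes past 2-fold among metabolic genes differed by list, set against 2.45% of all genes higher and 1.63% lower. Of 10 measured polyamine genes 2 were higher (20%), Mtap and Srm, and 0 lower. Mtap, which recycles the by-product of polyamine synthesis, went from 825 to 3502 (4.25-fold). Srm, spermidine synthase, went from 146 to 576 on U74A and from 589 to 672 on U74B, both probe sets of a kind that can cross-hybridise. Odc1, the first enzyme of polyamine synthesis and named after its values were seen, had 235 and 219. Of 38 nutrient and ion carriers 5 were higher (13.2%) and 1 lower (2.63%). The higher ones include Slc25a33, a mitochondrial pyrimidine nucleotide carrier (111 and 540), and Slc2a3, the glucose transporter GLUT3 (146 and 446 on the brighter of its U74A probe sets). Slc2a3 was also the 1 higher gene among 26 of glycolysis and the pentose phosphate pathway, with 0 lower and a median of -0.09. Fasn, fatty acid synthase, went from 253 to 529. It was the 1 higher gene among 30 of cholesterol and fatty acid synthesis, with 0 lower and a median of -0.14. Purine synthesis (0 of 14), pyrimidine and deoxynucleotide synthesis (0 of 17) and respiratory chain subunits (0 of 57) had no gene past 2-fold, and their medians were -0.02, -0.14 and -0.08. In lists of 14 and 17 genes a count of 0 is near the shares of all genes. Among mitochondrial import genes Chchd4 rose (628 and 1708 on U74B, with U74C probe sets in both directions) and Timm21 fell (401 and 159).

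Genes linked to FOXO factors and growth arrest fell. Of 29 measured, 7 were lower by 2-fold and 0 higher, against 1.63% and 2.45% of all genes, with a median log2 ratio of -0.48, and 22 lay below 0. Ccng2, an atypical cyclin that slows division and a standard FOXO target, had 1055 without IL-3, 981 at 30 min and 56.3 at 2 h, at least 8.8-fold lower. Trp53inp1, a stress-induced p53 cofactor, had 557, 593 and 127 (4.39-fold lower), and Tob1, an antiproliferative regulator of mRNA decay, had 550, 598 and 142 (3.87-fold lower). At 30 min these 3 genes were within 2-fold (log2 ratios of -0.11, 0.09 and 0.12). Ddit4, the mTORC1 inhibitor REDD1, had 508, 158 and 125 (4.08-fold lower), with most of its fall within 30 min. At 30 min the list had 1 of 30 genes higher and 1 lower, against 0.711% and 0.343% of all genes. The list's median was -0.01 then.

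Gadd45a, a stress sensor of the G2 checkpoint, stepped down from 594 over 364 to 230 (2.59-fold lower), and Cdkn2d, an inhibitor of CDK4 and CDK6, went from 355 to 160. Both also stand among the CDK inhibitor and GADD45 genes, of which 4 of 15 were lower and 0 higher, against 1.63% and 2.45% of all genes. Ccng2 and Trp53inp1, counted above, are among the 4 as well, so the counts of these lists overlap. Cdkn1a, which encodes p21, went the other way, with 214 and 483 on one probe set and 228 and 343 on the other. Pik3ip1, an inhibitor of PI3K, is counted at -0.58 from a probe set of 179 without IL-3 and 4.74 at 2 h; another of its probe sets, of a kind that can cross-hybridise, went from 879 to 76.4. Cdkn1a and Pik3ip1 are named after their values were seen. The FOXO core TGTTTAC, or its reverse complement GTAAACA, was in 6 of 26 windows of the list (23.1%) in 4.05% of all genes with a window, in 3.24% of measured genes and in 6 of 110 genes lower by 2-fold (5.45%), but in no window of the named genes that fell.

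Most DNA replication genes were slightly lower. Of 54 measured, 51 lay below 0 (94.4%, against 53.8% of all genes) and the median log2 ratio was -0.50, but only 2 were past 2-fold and 16 past 1.5-fold (8.3% of all genes were lower by 1.5-fold). Cdc6, which loads the replicative helicase, had 429 without IL-3, 446 at 30 min and 132 at 2 h (3.25-fold lower). Its partner Cdt1 had 782, 655 and 303 (2.58-fold lower). The helicase subunits themselves, named after their values were seen, had log2 ratios of -0.70 (Mcm2), -0.54 (Mcm3), -0.48 (Mcm4), -0.62 (Mcm5), 0.01 (Mcm6, near the floor on U74C) and -0.51 (Mcm7). Pcna, the polymerase clamp and likewise named after its values were seen, went from 2373 to 1682. At 30 min the list's median was -0.04.

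Mitosis genes showed the same direction with a smaller median, -0.28 over 62 genes, of which 54 lay below 0. Among them 14 were past 1.5-fold lower and 3 past 2-fold, against 8.3% and 1.63% of all genes. The 3 were Nusap1 (456 and 198), Spc25 (954 and 448) and Ncapg (1008 and 475). E2f8, a repressor of E2F targets, was read by a pair of U74A probe sets that can cross-hybridise, at least 5.22-fold lower on one (625 to 107) and at least 2.69-fold lower on the other (322 to 98.5). Of the G1 cyclins and their kinases, Ccne1 (233 and 233), Ccnd3 (521 and 483) and Cdk4 (1506 and 1253 on its brighter probe set), named after their values were seen, stayed within 2-fold. G1/S and mitosis genes were lower in cells whose labels do not give a cell cycle state, and its part in these values was not tested.

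Of 28 measured transcription factors of the blood lineages 3 were lower by 2-fold, against 1.63% of all genes, and 1 was higher (Ikzf4), with a median of -0.22. The 3 lower ones act in, among others, the erythroid and megakaryocyte lineages. Gfi1b, a repressor of that lineage, had 470, 430 and 144 (3.26-fold lower), Klf1, the activator of adult globin genes, had 624, 450 and 194 (3.22-fold lower), and Bach1, a heme-sensing repressor, had 366, 464 and 159 (2.31-fold lower). Gata1 (405 and 222) and Gata2 (1827 and 1344), named after their values were seen, were within 2-fold. Of the 11 erythroid and megakaryocyte markers on the arrays 7 reached the floor. Of these 1 was lower by 2-fold (Klf1, already counted above), against 1.63% of all genes, and 0 higher. Summed over the 7 that reached the floor, the signal was 7095 without IL-3 and 5425 at 2 h, with Alas2, Pf4, Epb42 and Gp9 under the floor. Itga2b (3366 and 2908) was the brightest of the 7. The sums of other marker sets were lower at 2 h too. They were 1206 and 993 for pro-B and B lineage, 473 and 406 for myeloid and mast, and 985 and 900 for fibroblast and epithelial markers. The part of these markers in the lower values was not tested.

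The following groups had at most 2 genes each past 2-fold, set against 2.45% of all genes higher and 1.63% lower. The BCL2 family and apoptosis list had Bcl2l1 as its 1 gene past 2-fold among 23 measured and a median near 0, and Casp2 (574 and 356) was its lowest gene. Autophagy and lysosome genes had 0 of 49 past 2-fold with a median of -0.10. NF-kB subunits and inhibitors had 2 of 17 higher (11.8%), Map3k14, the kinase NIK, read only on U74C (141 and 417), and Traf5 (130 and 324). Interferon response genes had 0 of 31 higher and 1 lower, Tap1 (648 and 253 on U74A, and 190 and 78.0 on U74B, where the ratio was within 2-fold once the floor was set). Cytokines and chemokines reached the floor in 10 cases, 0 of them past 2-fold, and in 6 a signal under the floor entered the ratio. Their median log2 ratio was 0.12, or 0.41 with signals as deposited. Hbegf was at 28.9 and 223 on U74A (at least 1.86-fold) and at 19.9 and 260 on a U74C probe set (at least 2.17-fold). Its gene value was at least 1.89-fold. Of 43 proteasome subunits 1 was lower, Psmc3, on a U74C probe set (839 and 228), while its brightest U74A probe set had 560 and 623. Housekeeping genes had 0 of 19 past 2-fold and a median of -0.02.

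Of 1790 genes read by several measured probe sets 19 were past 2-fold higher on every one that counted towards the gene and 7 past 2-fold lower. Besides genes named above, the higher ones include Fam3c, a secreted cytokine-like protein (708 and 2669, 307 and 983 on U74A, and 1723 and 5884 on U74C), Rhoq, a small GTPase of the CDC42 group (267 and 881 on U74A, 326 and 1163 on U74C), and the little-studied D16Ertd472e on 4 U74B probe sets (3.12-fold). 6430571L13Rik rose at least 3.41-fold and at least 4.43-fold on its U74C probe sets. 2410002F23Rik rose 2.41-fold, while a probe set of it that can cross-hybridise, left out of the gene value, had 3513 and 3493. The lower ones include Rnf125, a ubiquitin ligase (3911 and 1034 on U74B, 1930 and 345 on U74C), Pcmtd2 (1233 and 408 on its brighter probe set), Atad5, which unloads the polymerase clamp (2032 and 764 on U74C), Fam102b (1525 and 754) and Cytip (993 and 452 on U74A).

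**Figure D4:**
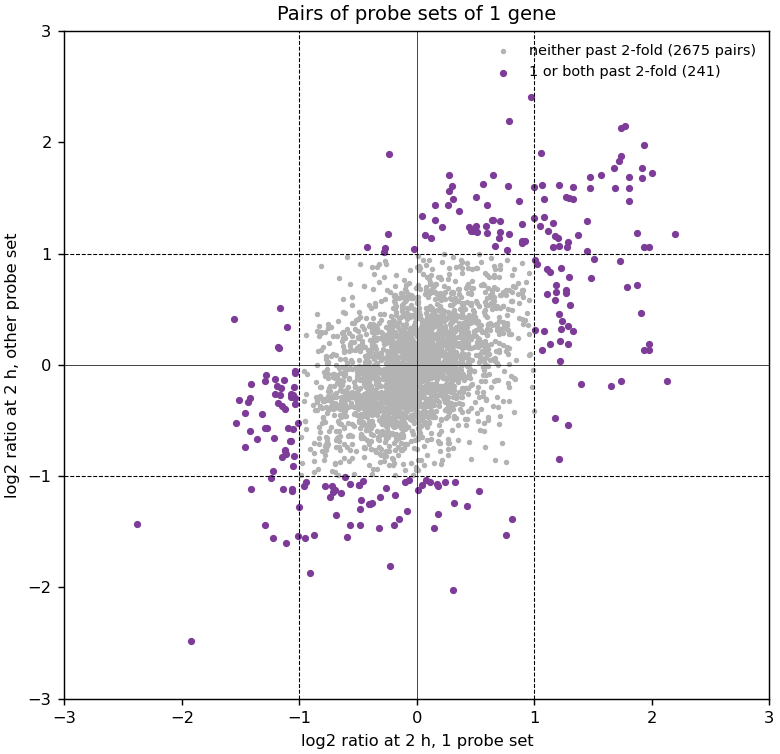
Log2 ratio at 2 h of 1 probe set against another of the same gene, for 2916 pairs (grey, neither past 2-fold; purple, 1 or both). In 53 pairs both were past 2-fold in the same direction and in 0 pairs in opposite directions.

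Pairs of probe sets for 1 gene show the scatter between probe sets, and since both read the same cultures they say nothing of the spread between cultures. In 241 of 2916 pairs at least 1 probe set was past 2-fold, in 207 of these both had the same sign, and in 53 both were past 2-fold. The SD of a single log2 ratio was taken from the differences within pairs whose signals all reached the floor. It was 0.32 over 2076 such pairs, 0.20 over 252 within U74A and 0.41 over 117 within U74C. The scatter of ratios that use a signal under the floor was not measured. The 18 control probe sets measured on all designs gave an SD of 0.34 between designs. Of the 338 genes past 2-fold, 283 rest on a single probe set, 43 higher and 35 lower genes were read only on U74C, and 59 and 42 have 1 signal under the floor. On U74A 111 probe sets were higher and 40 lower, on U74B 113 and 142, and on U74C 114 and 96, so the balance of the directions differed by design. On U74A and U74B alone 161 of 6771 genes were higher (2.38%) and 110 lower (1.62%).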

How the data were processed

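RNA from Ba/F3-beta cells was hybridised to 3 Affymetrix designs, 1 array per condition and design, and groups were taken from the sample titles. The deposited values are linear intensity signals per probe set that the authors made with MAS5, per the labels and the submitters' processing notes; detection calls were not used here. The arrays' trimmed means, leaving out 2% at each end, were 150.04 to 150.1, and arrays were scaled to a common one. Of 36701 non-control probe sets 29131 had 1 gene symbol in the platform annotation, 724 several and 6846 none; 29110 of the former matched the GRCm38.p6 gene table by Entrez ID and 0 changed. Those whose name ends in _f, _r, _i or _x before _at can cross-hybridise and were used for a gene only in the absence of others. A gene's value is the median over its measured probe sets. Log2 ratios were taken within a design and called at 2-fold; this is a selection by size and no test. The number of arrays limits the precision, and the labels do not say whether the designs received the same RNA.

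Named genes are those with 2 or more measured probe sets all past 2-fold one way (up to 16 rises and 12 falls), up to 4 members per list past 2-fold each way, or, where fewer than 2 were, the 2 with the largest ratios; others are marked as named after their values were seen. The members and the 51 lists were chosen with earlier results of these data known. Promoter windows of 300 bases (RefSeq, GRCm38.p6) matched 6793 of 8294 measured genes. Alternatives covered the floor, scaling, filter, probe set choice, designs and threshold. Python 3.11.15, numpy 2.4.6 and pandas 2.3.3 were used, and the steps were tested on simulated data.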

Additional observations from a re-analysis of the deposited data

Results flagged for a closer look

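Probe sets without a gene symbol in the annotation enter no gene count, yet some of them changed. Of 1580 measured, 30 were higher by 2-fold after 2 h of IL-3 (1.90%) and 36 lower (2.28%). By size, the leading ones among those higher had signals of 152 without IL-3 and 1298 at 2 h on U74C, and 179 and 1114 on U74A. The leading one among those lower had 541 and 122 on U74C. Probe sets with several symbols, 308 measured, held 5 higher and 2 lower. What these probe sets read was not tested.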

How the results depend on the processing

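Changing the floor or the threshold moved the counts most. With the floor halved, 316 genes were higher and 264 lower (614 and 614 probe sets); doubled, 112 and 69 (183 and 113). With signals under the floor as deposited, 356 and 323 genes were past 2-fold, and again 614 probe sets each way, since this setting and the halved floor select the same probe sets. At 1.5-fold the counts were 657 and 688 genes (1182 and 1228 probe sets), and at 3-fold 49 and 20 (92 and 39). On U74A and U74B alone 224 and 182 probe sets remained. With no filter 87 genes were lower. Median scaling gave 220 and 196 genes and quantile scaling 218 and 128. Reversed values were few: the ID and bHLH list's median, main value -0.16, was 0.26 with the floor doubled and 0.11 without U74C; the carrier list's median became -0.0066 with median scaling; and Psmc3 was 0.15 without U74C. Of 139 named genes past 2-fold, 81 remained so with the floor doubled, 126 with it halved, 106 with no filter and 132 with median scaling. List medians over the alternatives ran from 0.45 to 0.72 for large subunit assembly, 0.33 to 0.50 for small subunit assembly and -0.52 to -0.35 for DNA replication. Those of STAT5 targets, immediate early and growth arrest genes reached 0 with no filter, where unexpressed genes enter at 0. The share of STAT5 list windows with TTCNNNGAA was 9.09% over the whole window and 0% over the bases before the start. No paired analysis was possible because each condition had 1 array per design. Signal over background limits genes near the floor, whose ratios are bounds.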

Other observations

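Genes outside the lists also changed, and the following, except Itga4, were chosen after their values were seen. Several encode surface or secreted proteins. Podxl, a sialomucin of blood progenitors, went from 283 to 1174 on U74B, while a U74C probe set that can cross-hybridise had 639 and 574. Kcnk5, a potassium channel, had 260 without IL-3, 368 at 30 min and 1191 at 2 h. F2r, the thrombin receptor PAR1, went from 1997 to 4526 on its brightest probe set. Furin, a proprotein convertase, had 560 and 1157, Adam8, a membrane protease, 365 and 969, and Tnfrsf12a, the TWEAK receptor, 74.4 and 467. Lrp12, read on U74C, went from 154 to 887. The glycosylation enzymes moved both ways, St3gal4 from 344 to 983 and Fut7, which makes selectin ligands, from 330 to 76.1. Itga4, an integrin chain and the 1 gene of the adhesion list past 2-fold, named by the rule, fell from 1495 to 509 on U74B.

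Other changes touched RNA turnover, redox and signalling. Noct, a deadenylase-like protein, went from 237 to 864, Txnrd1, thioredoxin reductase, from 361 to 880, and Prmt6, an arginine methyltransferase read on U74C, from 276 to 940. Irak3, an inhibitor of Toll-like receptor signalling, fell from 1851 to 720, Lmo4 from 574 to 160, Arhgef18 from 556 to 82.1 and Arrdc3 from 598 to 151. Fbxo5, which restrains the anaphase-promoting complex, fell from 1748 to 512. Other replication and repair genes outside the list were lower too, with Wdr76 at 1144 and 502, Hells at 326 and 138, Ube2t at 290 and 98.1, and Fancd2 at 422 and 196.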
